A study of Mus musculus with 12 samples.

Results

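The ubiquitin-specific proteases were taken as every gene of the deposited table whose symbol is Usp followed by a digit, with Usp18 left out by the rule. This gave 43 of 11762 genes, and all 43 passed the filter on low values (at least 1 CPM, read counts scaled to a common library total, in at least 3 libraries), as did 11745 genes in all. Usp51 reached 1 CPM in 5 libraries, of which 3 were the control libraries. Usp6nl is matched by its name only: its protein is a GTPase-activating protein for a Rab and not a protease. Where leaving it out changes how many members passed in a comparison, that count is given too. Other counts of all members include it.

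The series measured polyadenylated RNA of J774A.1, an established macrophage-like tumour cell line of BALB/c mice, in 12 libraries. Control cells were mock-treated, MP cells received microparticles, LPS cells received lipopolysaccharide, and LPS+MP cells received both, with 3 libraries in each of the 4 groups. The labels give no dose, time, material or size of the microparticles, and no other allele or agent. The design text calls the replicates biological without saying what was prepared separately, so p-values measure the spread between these libraries, from a single line. Lipopolysaccharide comes from the cell envelope of Gram-negative bacteria and is sensed by Toll-like receptor 4.

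Ubiquitin is a small protein that is attached to other proteins singly or in chains and marks them for the proteasome, for sorting, or for assembly of signalling complexes. Ubiquitin-specific proteases are cysteine proteases that cut it off again, and they form the largest family of deubiquitinases. Downstream of Toll-like receptors, ubiquitin chains hold together the complexes that activate NF-kappaB, and deubiquitinases of this and other families shorten or remove such chains. Other members act on histones, DNA repair factors, endosomal receptors, mitochondria and the proteasome itself.

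LPS replicate 2 stood apart from the other 2 LPS libraries: 9 of the 43 members differed by over 0.5 log2 from the mean of those libraries, against 0 or 1 member in each of the other 11 libraries, and 21.5% of all genes did so. Its deviation followed transcript GC content, with a Spearman correlation across 11638 genes of -0.60, given as a description, against 0.53 in LPS replicate 1, 0.44 in LPS replicate 3, and the remaining 9 libraries lay between -0.30 and 0.26. Across the 43 members this correlation was -0.47 in LPS replicate 2, and larger in size in MP replicate 1 (-0.64), MP replicate 3 (0.57), LPS replicate 1 (0.51) and control replicate 2 (-0.48). Changes of members that passed the test and involve the LPS group are given with and without LPS replicate 2. The share of CPM on mitochondrial genes was 5.24 to 5.88% in control, 6.70 to 7.76% in MP, 5.20 to 7.04% in LPS and 3.90 to 4.57% in LPS+MP. Of 8 macrophage markers, 7 were in the table (Adgre1 was not listed), with a summed level of 3846 to 6170 CPM per library and a group mean of 3972 in LPS+MP against 5556 in control, 5645 in MP and 5915 in LPS. The markers did not move together. From control to LPS+MP, mean CPM was lower for Lyz2 (2393 to 982), Itgam (691 to 484), Csf1r (1003 to 820) and Cd68 (865 to 837). It was higher for Fcgr1 (41.9 to 216), Mertk (63.2 to 84.3) and Ptprc (499 to 549). The T cell, B cell, epithelial and NK cell marker lists had 0 genes in the table, the neutrophil list 1 of 4 at 1.22 to 4.54 CPM, the fibroblast list 1 of 4 at 1.00 to 10.8 CPM and the endothelial list 3 of 4 with a sum of 7.43 to 21.5 CPM. The part of any of these in the results below was not tested. In bulk RNA, fewer cells with a transcript and less of it per cell cannot be told apart.

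Most members were expressed at moderate levels. Per kb of transcript, which allows genes to be compared, the mean level over the 12 libraries ran from 0.326 CPM per kb for Usp51 to 49.9 CPM per kb for Usp4 and Usp5, with a median of 9.65 against 11 over 11655 genes with a transcript length. Usp5 takes apart unanchored ubiquitin chains, and Usp4 acts on several kinases and receptors of inflammatory and TGF-beta signalling. They were followed by Usp19, which has a membrane-anchored form at the endoplasmic reticulum, at 40.1 CPM per kb and by Usp39, a splicing factor that lacks protease activity, at 33.3 CPM per kb. At the other end stood Usp27x at 0.477, Usp11 at 0.623 and Usp49 at 0.698 CPM per kb. Member transcripts were longer than those of all genes (median 4.71 against 2.82 kb) and lower in GC content (47.3% against 50.4%). Chromosome 9 held 5 of the genes and the X chromosome 4.

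**Figure D1:**
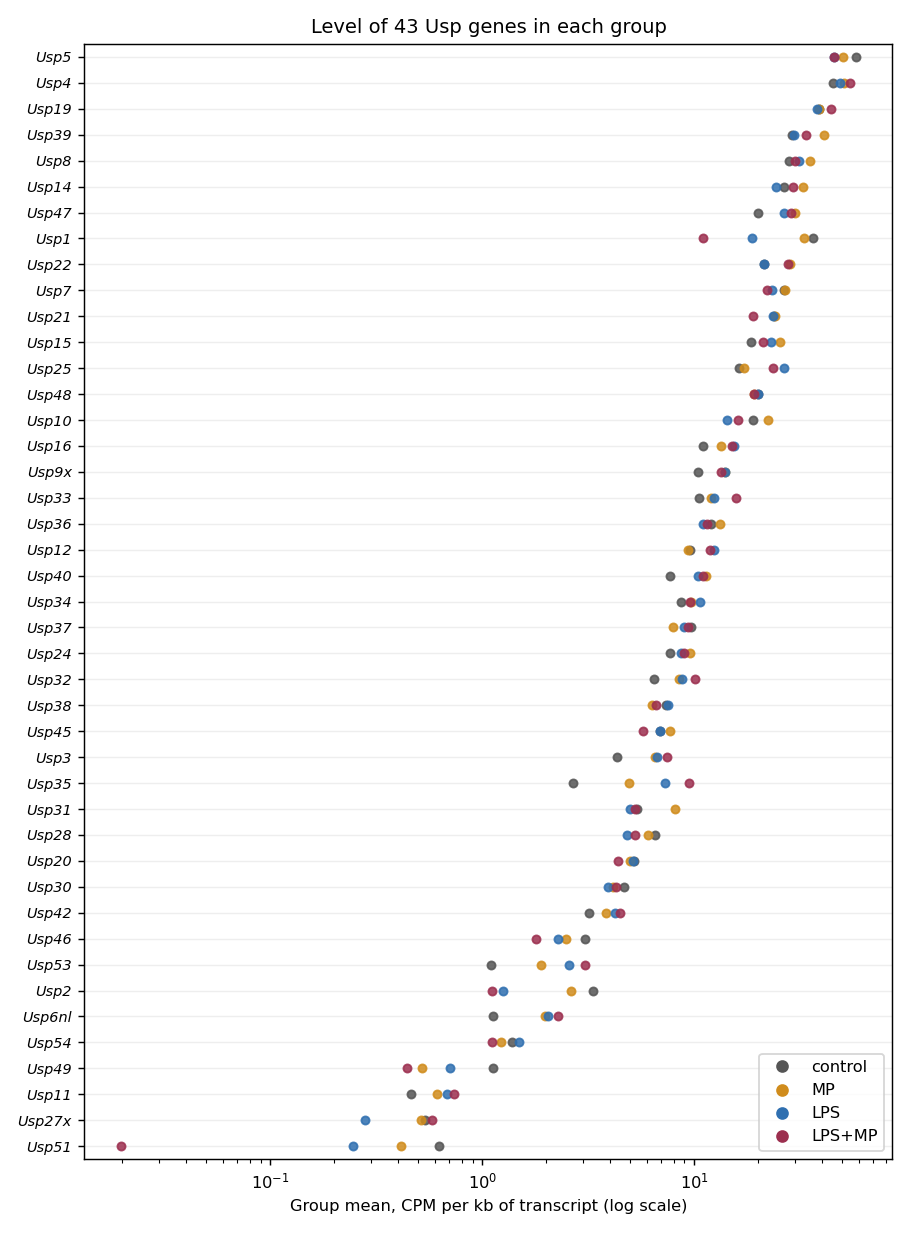
Group means of the 43 members in CPM per kb of transcript (log scale), ordered by the mean over all 12 libraries, with 1 point for each of the 4 groups. The means over 12 libraries, which set the order, span from 0.326 CPM per kb (Usp51) to 49.9 CPM per kb (Usp5). The group means shown span from 0.0198 (Usp51 in LPS+MP) to 57.9 CPM per kb (Usp5 in control). Usp1, Usp35, Usp53, Usp2 and Usp51 show the widest separation of group means.

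Usp19, Usp4, Usp5, Usp9x and Usp47 had the highest CPM, not divided by length. Usp19 was measured at 187, 187 and 187 CPM in control, 186, 190 and 184 in MP, 196, 158 and 193 in LPS, and 200, 218 and 220 in LPS+MP. Usp4 was at 170, 165 and 164 CPM in control, 196, 190 and 173 in MP, 179, 166 and 190 in LPS, and 203, 197 and 198 in LPS+MP. For Usp19 the control and MP libraries overlapped and the LPS+MP libraries were the highest, whereas the control libraries of Usp4 were the lowest apart from LPS replicate 2, which lay among them. Usp4 passed the test in none of the 4 pairwise comparisons, and Usp19 only in LPS+MP against LPS, by 0.23 ± 0.08 (standard error), adjusted p = 0.0356; without LPS replicate 2 that value was 0.13, adjusted p = 0.0857. Usp5 was at 178, 192 and 188 CPM in control, 156, 162 and 167 in MP, 167, 118 and 158 in LPS, and 146, 146 and 149 in LPS+MP. All control libraries of Usp5 were above all others. It fell with LPS by 0.35 ± 0.10 on the log2 scale (adjusted p = 0.00688), and the fall was 0.19 without LPS replicate 2, in which the gene was lowest.

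Changes below are log2 differences of CPM + 1, with a standard error, from limma over all 12 libraries, and p-values are adjusted by Benjamini-Hochberg over 11745 genes. A fold call needs an adjusted p under 0.05 and a change over 1 log2, the thresholds the series names, and a wider rule needs the adjusted p alone. The added 1 CPM makes the changes of low genes smaller than those of their CPM.

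LPS against control asks what the bacterial ligand changed without particles. By the fold call, 2 members rose, Usp35 and Usp53 (8.30% of all genes rose), and 1 fell, Usp2 (8.05% of all genes fell). By the adjusted p alone, 13 of 43 members rose and 8 fell, against 26.6% of all genes higher and 35.6% lower. The share that rose, 30.2%, was close to that background, and the share that fell, 18.6%, was below it. Without Usp6nl the counts were 12 of 42 and 8 of 42. The members' median change was 0.02, against -0.08 over all genes, and 10 of 43 changed by over 0.5 log2, against 40.7% of all genes.

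Usp35 is a paralog of Usp38 that has been linked to mitochondria. It was measured at 12.2, 11 and 11.2 CPM in control, 20.4, 21.9 and 21 in MP, 37.1, 21.2 and 34.4 in LPS, and 39.2, 41.8 and 39.9 in LPS+MP. Control libraries were the lowest and LPS+MP libraries the highest, with no overlap between control and any treated group, and LPS replicate 2 lay among the MP libraries. The mean rose from 11.5 ± 0.672 (SD, n = 3) in control to 30.9 ± 8.53 (SD, n = 3) in LPS, 2.69-fold, and the log2 change was 1.32 ± 0.15 (limma, adjusted p = 2e-06). Without LPS replicate 2 it was 1.56. Usp35 was the 1 member that passed in all 4 pairwise comparisons: by 0.83 ± 0.15 in MP against control (adjusted p = 0.000564), by 0.90 ± 0.15 in LPS+MP against MP (adjusted p = 0.000117) and by 0.41 ± 0.15 in LPS+MP against LPS (adjusted p = 0.0469). The last of these rests on LPS replicate 2, since it was 0.17 without that library (adjusted p = 0.139). It was also past 0.05 when any of the LPS+MP libraries was left out, with an adjusted p of 0.0915 without replicate 1, 0.129 without replicate 2 and 0.0976 without replicate 3. Usp38, the paralog, passed in none of the 4.

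Usp53 and Usp54 are related proteins long classed as inactive, and Usp53 is a component of tight junctions. Usp53 was at 6.4, 6.96 and 6.96 CPM in control, 14, 11.5 and 9.54 in MP, 12.2, 20.8 and 14.6 in LPS, and 17.2, 18.5 and 21.1 in LPS+MP. All control libraries were below all treated ones, and the LPS libraries overlapped both other treated groups. The LPS change was 1.09 ± 0.17 (adjusted p = 4.55e-05) and 0.89 without LPS replicate 2, which was the highest LPS library and without which the fold call is lost. Usp53 also rose in MP against control by 0.69 ± 0.17 (adjusted p = 0.00458) and in LPS+MP against MP by 0.66 ± 0.17 (adjusted p = 0.00363). Usp54 passed in none of the 4, and LPS replicate 2, at 15 CPM, stood above the other 11 libraries at 6.46 to 9.91 CPM.

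Usp2 has been described as a regulator of cyclin D, of the clock protein Per1 and of NF-kappaB signalling. Its values were 13.3, 12.8 and 12.5 CPM in control, 10.1, 9.38 and 11 in MP, 3.98, 6.53 and 3.98 in LPS, and 3.25, 4.33 and 5.25 in LPS+MP. All 6 libraries with LPS were below all 6 without it. The mean fell from 12.9 ± 0.400 (SD, n = 3) in control to 4.83 ± 1.47 (SD, n = 3) in LPS, a change of -1.28 ± 0.17 (adjusted p = 1.04e-05), and -1.48 without LPS replicate 2, the highest of the LPS libraries. LPS+MP was lower than MP by -1.10 ± 0.17 (adjusted p = 5.92e-05). Without LPS+MP replicate 1, the lowest library, that change was -0.95 and no longer passed the size threshold. The MP change itself was -0.32 ± 0.17, with an adjusted p of 0.161.

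Usp1 removes ubiquitin from the DNA repair and replication proteins PCNA and FANCD2, together with its activator Wdr48. It was at 130, 135 and 125 CPM in control, 121, 116 and 117 in MP, 53.1, 87.0 and 60.4 in LPS, and 38.3, 40.5 and 39.7 in LPS+MP. The groups did not overlap, in the order control, MP, LPS and LPS+MP, although the step from control to MP was -0.14 ± 0.13 with an adjusted p of 0.402. With LPS it fell by 0.98 ± 0.13 (adjusted p = 6.09e-06), just under the size threshold. It passed that threshold without LPS replicate 2, the highest LPS library, at -1.19, and without control replicate 3, at -1.01. In LPS+MP it was lower than in MP by -1.56 ± 0.13 (adjusted p = 3.73e-08), the largest change of any member in the 4 comparisons, and lower than in LPS by -0.71 ± 0.13 (adjusted p = 0.00045), or -0.51 without LPS replicate 2. The mean fell 2.99-fold from MP, at 118 ± 2.55 CPM (SD, n = 3), to LPS+MP, at 39.5 ± 1.11 CPM (SD, n = 3).

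**Figure D2:**
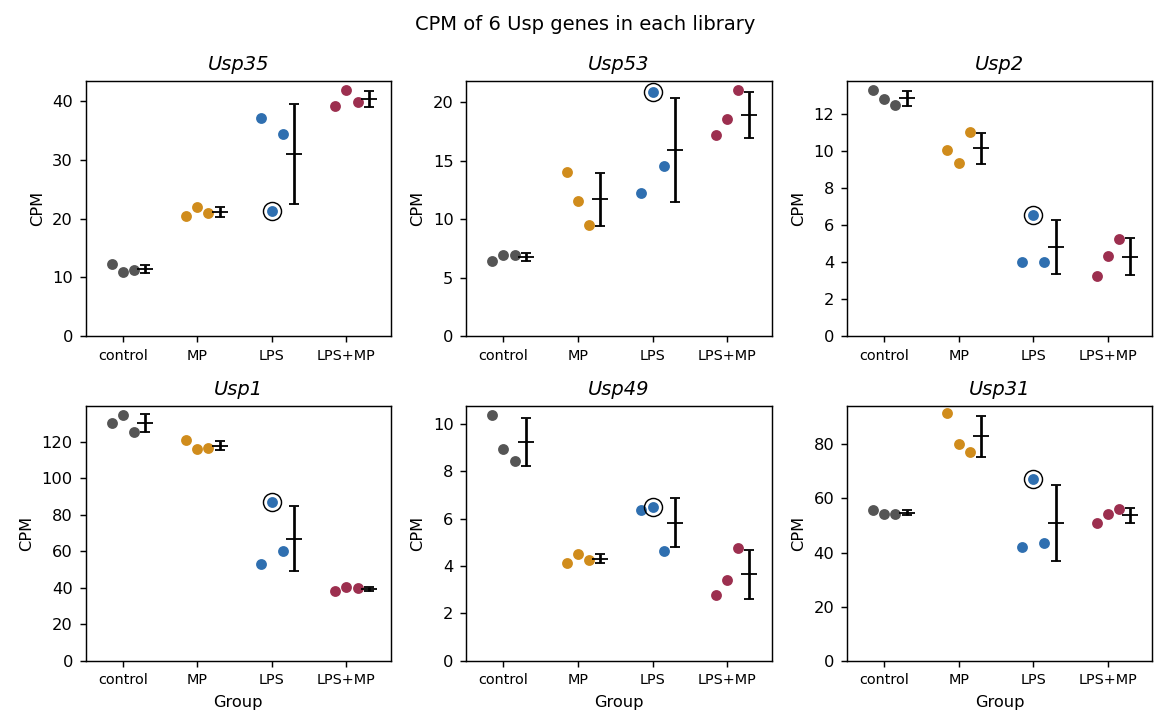
CPM of 6 members in each of the 12 libraries (points; axes start at 0), with the mean and SD of the 3 libraries of each group in black and LPS replicate 2 ringed. Usp35 runs from 11 to 12.2 in control to 39.2 to 41.8 in LPS+MP, Usp1 from 125 to 135 down to 38.3 to 40.5, and Usp31 is highest in the MP libraries.

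The deposited table places Usp35 (ENSMUSG00000035713) at chr7:97309380-97332020 on the minus strand, Usp53 (ENSMUSG00000039701) at chr3:122933601-122984447 on the minus strand, Usp2 (ENSMUSG00000032010) at chr9:44067021-44095627 on the plus strand and Usp1 (ENSMUSG00000028560) at chr4:98923810-98935543 on the plus strand. Usp49 (ENSMUSG00000090115) is at chr17:47630690-47686738 on the plus strand. The table names no build. Its transcript starts equal those of GENCODE M21 (GRCm38) to the base in 6328 of 11655 matched transcripts, and all 11655 are on the same chromosome. RefSeq promoter windows of GRCm38.p6, from 250 bases before to 50 bases after a start site, matched 34 members with 35 windows. Those of Usp35, Usp2 and Usp49 are shown because these members had the largest change up with LPS, down with LPS and down with MP, a choice made after their values were seen. Capitals mark matches, on either strand, to the motifs named after them. The windows are chr7:97332060-97332359 (minus strand), chr9:44084670-44084969 (plus strand) and chr17:47630440-47630739 (plus strand), and the Usp2 window belongs to another start, 17899 bases from that of the deposited transcript.
Usp35: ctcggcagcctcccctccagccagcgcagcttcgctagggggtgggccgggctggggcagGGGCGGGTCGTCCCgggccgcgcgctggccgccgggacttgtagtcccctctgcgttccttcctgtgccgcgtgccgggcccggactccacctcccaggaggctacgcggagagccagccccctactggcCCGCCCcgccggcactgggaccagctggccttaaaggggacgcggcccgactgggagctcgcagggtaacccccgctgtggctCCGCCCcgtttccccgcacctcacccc
Usp2: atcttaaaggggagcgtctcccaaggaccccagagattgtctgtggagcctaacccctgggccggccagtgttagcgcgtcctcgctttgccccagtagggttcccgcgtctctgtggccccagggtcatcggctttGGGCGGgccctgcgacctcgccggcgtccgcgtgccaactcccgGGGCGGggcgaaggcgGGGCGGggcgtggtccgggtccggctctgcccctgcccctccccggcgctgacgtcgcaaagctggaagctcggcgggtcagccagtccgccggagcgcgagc
Usp49: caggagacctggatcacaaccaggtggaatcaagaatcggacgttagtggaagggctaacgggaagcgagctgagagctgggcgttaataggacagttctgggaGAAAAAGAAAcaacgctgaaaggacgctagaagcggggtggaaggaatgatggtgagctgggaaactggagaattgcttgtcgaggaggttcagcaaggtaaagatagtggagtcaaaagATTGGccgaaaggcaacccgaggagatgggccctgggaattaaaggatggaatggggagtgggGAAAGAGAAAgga
In Usp35 the capitals are GC boxes (GGGCGG) at 190 and 60 bases before and 24 after the start site and a kappaB-like match (GGGANNNNCC on the other strand) that overlaps the outermost GC box. In Usp2 they are 3 GC boxes, and in Usp49 a CCAAT box (CCAAT) and 2 matches to the interferon-stimulated letters (GAAANNGAAA). The GC box was in 77.1% of member windows, against 35.7% of all 32851 windows and 62.3% of 11137 windows of genes in the table, and the member windows were richer in GC (median 66.3% against 60.7% in the windows of genes in the table). For the other motifs the shares are those of member windows, of all windows and of windows of genes in the table, in this order. The kappaB-like letters were in 17.1%, 20.7% and 26.6%, the interferon-stimulated letters in 2.86%, 3.44% and 3.22%, and the CCAAT box in 17.1%, 37.4% and 38.0%. An AP-1 motif (TGANTCA) was in 8.57%, 7.81% and 5.27%, the E-box (CACGTG) in 14.3%, 7.15% and 10.1%, and the cell cycle homology letters (TTTGAA) in 2.86%, 17.9% and 12%. A match is a run of letters and was not tested as a site.

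MP against control asks what particles changed in cells without LPS. No member passed the fold call (0 of 43, against 3.67% of all genes in both directions). An unadjusted p under 0.05 was reached by 22 members. At least 38.9% of all genes reached it, their share at an adjusted p under 0.05. By the adjusted p alone 18 members rose and 2 fell, against 20.6% of all genes higher and 18.3% lower, so that 41.9% of the members rose. Without Usp6nl the counts were 17 of 42 and 2 of 42. The median change of the 43 members was 0.16, against 0.02 over all genes. Of the members, 27 were above 0, and the median of all genes was too. The rises were modest, between 0.23 (Usp10) and 0.83 (Usp35).

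Usp47 acts in base excision repair and was at 104, 119 and 109 CPM in control, 182, 161 and 152 in MP, 130, 171 and 138 in LPS, and 163, 160 and 153 in LPS+MP. Its control libraries were below all others, and it rose with MP by 0.57 ± 0.10 (adjusted p = 0.000297) and with LPS by 0.39 ± 0.10 (adjusted p = 0.00251), or 0.28 without LPS replicate 2. Usp9x, a large X-linked protease of trafficking and cell polarity proteins, was at 119, 136 and 116 CPM in control, 193, 164 and 143 in MP, 140, 193 and 165 in LPS, and 154, 161 and 159 in LPS+MP. Here, too, every control library was below every treated one, but within MP and LPS the values spread widely. Usp9x rose with MP by 0.42 ± 0.12 (adjusted p = 0.01), and without MP replicate 1, the highest MP library, by 0.31 with an adjusted p of 0.0615, which does not pass. With LPS the change was 0.41 ± 0.12 (adjusted p = 0.00593), and 0.29 without LPS replicate 2.

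Usp31 was highest in the MP group. It has been described as a modulator of NF-kappaB signalling, and its values were 55.8, 54.2 and 54.3 CPM in control, 91.6, 80.3 and 77.2 in MP, 42.1, 67.3 and 43.7 in LPS, and 50.9, 54.1 and 56.1 in LPS+MP. The MP libraries were above all others. It rose with MP by 0.59 ± 0.13 (adjusted p = 0.00291) and was lower in LPS+MP than in MP by -0.62 ± 0.13 (adjusted p = 0.00111), while the difference between the MP changes with and without LPS, -0.48 ± 0.19, had an adjusted p of 0.0819. Usp39 rose with MP by 0.49 ± 0.08 (adjusted p = 0.00016), from 64.5 to 65.5 CPM in control to 88.7 to 97.3 in MP. Usp40, a little-studied member, rose with MP by 0.55 ± 0.07 (adjusted p = 2.5e-05) and with LPS by 0.43 ± 0.07 (adjusted p = 6.8e-05), also 0.43 without LPS replicate 2. Usp6nl was at 4.5, 4.83 and 5.33 CPM in control, 9.71, 8.25 and 7.67 in MP, 8.37, 9.20 and 9.08 in LPS, and 10.5, 9.19 and 10.1 in LPS+MP. All 9 treated libraries were above the control ones, with rises of 0.69 ± 0.12 with MP (adjusted p = 0.000366) and 0.75 ± 0.12 with LPS (adjusted p = 6.69e-05), or 0.73 without LPS replicate 2.

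Usp49 and Usp37 were the members that fell with MP. Usp49 removes ubiquitin from a core histone and was at 10.4, 8.95 and 8.44 CPM in control, 4.13, 4.52 and 4.26 in MP, 6.38, 6.47 and 4.63 in LPS, and 2.76, 3.40 and 4.78 in LPS+MP. Control libraries were above all others, and the LPS libraries lay between control and MP. It fell with MP by 0.95 ± 0.17 (adjusted p = 0.000381), close to the size threshold, and passed the fold call without control replicate 3, at -1.005. Its change with LPS was -0.59 ± 0.17 (adjusted p = 0.00571), or -0.67 without LPS replicate 2. In LPS+MP against LPS it was -0.57 ± 0.17 (adjusted p = 0.0157), or -0.49 without LPS replicate 2, with an adjusted p of 0.0852 without LPS+MP replicate 1, 0.0542 without LPS+MP replicate 2 and 0.180 after quantile normalization. Usp37, a protease of cyclin A and of DNA replication, was at 68.6, 72.6 and 65.6 CPM in control, 60.4, 57.0 and 51.3 in MP, 58.5, 69.9 and 62.5 in LPS, and 66.7, 64.6 and 67.9 in LPS+MP. The MP libraries overlapped those of LPS and were below the rest, and the change with MP was -0.29 ± 0.08 (adjusted p = 0.0125), with an adjusted p of 0.0578 without control replicate 2 and 0.0622 without MP replicate 3.

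**Figure D3:**
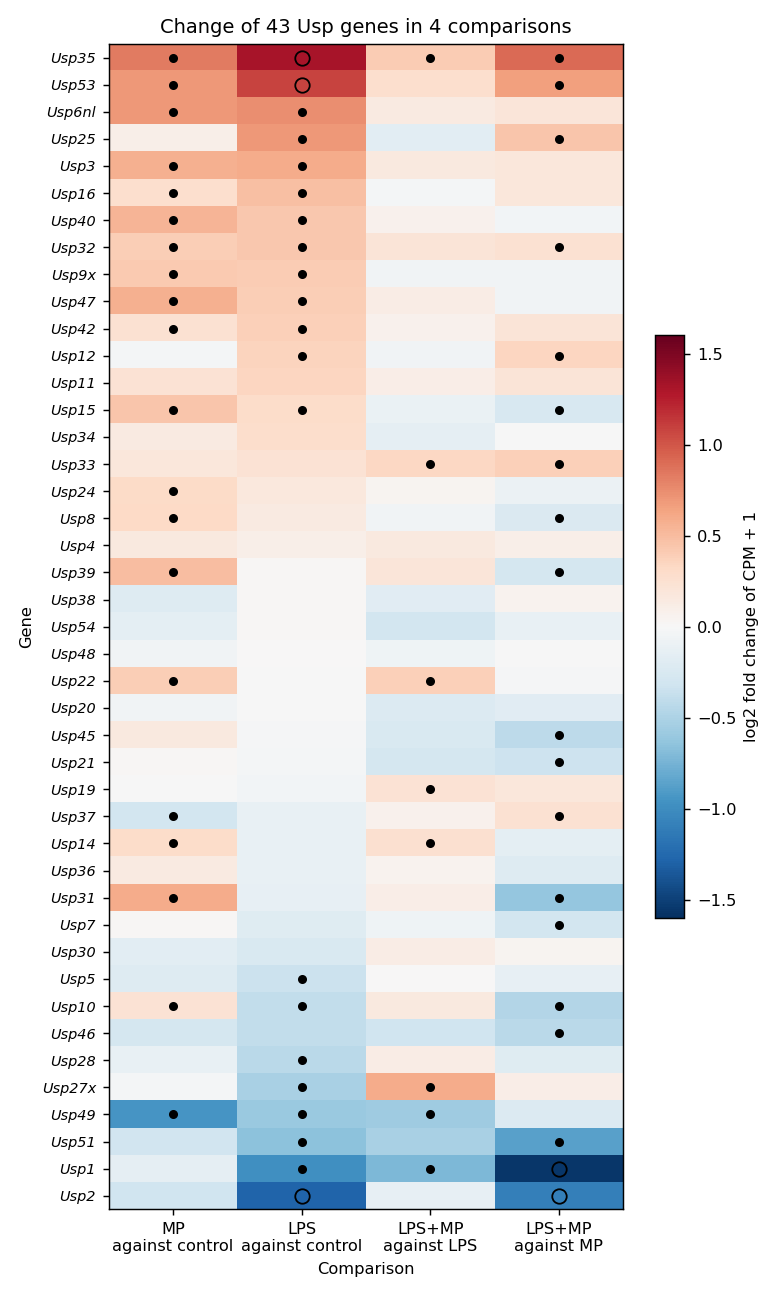
Log2 changes of CPM + 1 for the 43 members (lines) in the 4 pairwise comparisons (columns), ordered by the LPS change. Filled points mark an adjusted p under 0.05 and open circles mark fold calls, which are Usp35, Usp53 and Usp2 with LPS and Usp1 and Usp2 in LPS+MP against MP. In the MP column, 18 members rose and 2 fell.

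Of 7 histone and chromatin members, 3 rose and 1 fell with MP, against 20.6% of all genes higher and 18.3% lower. With LPS, 2 rose and 3 fell, against 26.6% higher and 35.6% lower. The 3 that fell include Usp27x and Usp51, whose limits are given below. Usp3 rose with both, by 0.57 ± 0.11 with MP (adjusted p = 0.000618) and by 0.59 ± 0.11 with LPS (adjusted p = 0.000177), or 0.74 without LPS replicate 2. Usp16 rose by 0.48 ± 0.09 with LPS (adjusted p = 0.000311), or 0.39 without that library. Usp22 is the protease of the SAGA transcription coactivator complex, and Usp27x and Usp51 are X-linked relatives that can bind the same adaptor proteins. Usp22 was at 95.5, 99.7 and 89.9 CPM in control, 148, 123 and 107 in MP, 84.5, 98.5 and 101 in LPS, and 124, 123 and 124 in LPS+MP. Each particle-treated group was above its counterpart without particles and did not overlap it. Usp22 rose by 0.39 ± 0.10 in MP against control (adjusted p = 0.00623) and by 0.39 ± 0.10 in LPS+MP against LPS (adjusted p = 0.00798), or 0.42 without LPS replicate 2, and the LPS change was -0.01 ± 0.10.

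Both relatives were low, and differences between them and Usp22 were not tested. Usp27x, a single-exon gene, was at 1.92, 2.00 and 1.27 CPM in control, 1.66, 1.52 and 1.82 in MP, 1.10, 0.679 and 0.940 in LPS, and 1.57, 2.02 and 2.04 in LPS+MP. The LPS libraries were the lowest, with a change of -0.52 ± 0.16 against control (adjusted p = 0.0124) and of 0.60 ± 0.16 in LPS+MP against LPS (adjusted p = 0.0108). Without LPS replicate 2 these were -0.43 and 0.51. The fall had an adjusted p of 0.0523 without control replicate 1 and 0.0571 without control replicate 2, and the rise 0.0522 with only the compared groups in the fit. Usp51 was at 1.30, 1.77 and 1.06 CPM in control, 0.743, 0.883 and 1.11 in MP, 0.384, 1.10 and 0.148 in LPS, and 0.00104, 0.130 and 0.000131 in LPS+MP. It was nearly undetected in LPS+MP, where no fold is given because the depth is unknown. It met the filter through its control libraries, so its LPS change of -0.66 ± 0.21 (-0.90 without LPS replicate 2), which is among the 8 members counted as lower with LPS, is not independent of the filter and is given as a description. The same holds for its value in LPS+MP against MP, among the 12 counted as lower there. How reads shared by these related genes were counted is not given in the sources used, so the low values are uncertain.

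Among immune signalling members, Usp25 was the one that rose with LPS. It acts on ubiquitin chains of the adaptor proteins Traf3 and Traf6, and it was at 72.9, 83.6 and 76.2 CPM in control, 89.3, 83.9 and 74.5 in MP, 121, 146 and 113 in LPS, and 115, 114 and 109 in LPS+MP. All 6 libraries with LPS were above all 6 without it. The change was 0.69 ± 0.10 with LPS (adjusted p = 1.37e-05), 0.59 without LPS replicate 2, and 0.44 ± 0.10 in LPS+MP against MP (adjusted p = 0.00106). Its paralog Usp28, a protease of Myc and of the DNA damage response, changed with LPS by -0.43 ± 0.10 (adjusted p = 0.00149), or -0.45 without LPS replicate 2; the difference between the paralogs was not tested. Usp38 and Usp48 passed in none of the 4 pairwise comparisons.

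Usp15, a paralog of Usp4 and Usp11 that acts on Smad and other signalling proteins, was at 85.5, 94.0 and 81.6 CPM in control, 128, 119 and 110 in MP, 97.1, 121 and 104 in LPS, and 95.4, 105 and 97.2 in LPS+MP. It rose with MP by 0.44 ± 0.09 (adjusted p = 0.00123) and with LPS by 0.30 ± 0.09 (adjusted p = 0.00972), or 0.20 without LPS replicate 2, and the control libraries were below all others. Usp4 and Usp11 passed in none of the 4, with changes of 0.16 and 0.23 with MP and 0.10 and 0.34 with LPS, and the differences between the paralogs were not tested. Of the pair activated by Wdr48 that regulates receptors and histones, Usp12 rose with LPS by 0.36 ± 0.09 (adjusted p = 0.00251), or 0.27 without LPS replicate 2. Usp46, the other of that pair, changed by -0.40 ± 0.17, with an adjusted p of 0.0583.

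Of 5 endosome and membrane traffic members, Usp8, Usp10 and Usp32 rose with MP and 0 fell. Beside them, 18 and 2 of all 43 members and 20.6% and 18.3% of all genes did so. Usp8, which acts on receptors at the sorting endosome, rose by 0.31 ± 0.06 (adjusted p = 0.000991), from 116 to 118 CPM in control to 142 to 152 in MP. Usp10 rose slightly with MP, by 0.23 ± 0.08 (adjusted p = 0.0332, and from 0.0552 to 0.101 when any 1 control or MP library was left out), and changed with LPS by -0.39 ± 0.08 (adjusted p = 0.000613), or -0.34 without LPS replicate 2. Usp32, a Golgi and endosome protease, was above control in each treated group and rose by 0.43 ± 0.08 with LPS (adjusted p = 0.000246), or 0.38 without LPS replicate 2. Usp14, which trims chains at the proteasome, rose with MP by 0.29 ± 0.08 (adjusted p = 0.00668) and in LPS+MP against LPS by 0.26 ± 0.08 (adjusted p = 0.0156), or 0.30 without LPS replicate 2, the latter change with an adjusted p of 0.0537 without LPS replicate 1 and 0.0674 without LPS+MP replicate 2.

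LPS+MP against LPS asks what particles added to cells with LPS, and LPS+MP against MP what LPS added to cells with particles. In LPS+MP against LPS no member passed the fold call (0 of 43, against 4.52% of all genes). An unadjusted p under 0.05 was reached by 15 members. At least 35.2% of all genes reached it, their share at an adjusted p under 0.05. By the adjusted p alone 6 members rose and 2 fell, against 13.0% of all genes higher and 22.2% lower. The 6 were Usp14, Usp19, Usp22, Usp27x, Usp33 and Usp35, and the 2 were Usp1 and Usp49. Usp33, a paralog of Usp20 that acts on receptors, rose by 0.33 ± 0.10 (adjusted p = 0.0186), or 0.38 without LPS replicate 2, with an adjusted p of 0.0635 without LPS replicate 1 and 0.0771 without LPS+MP replicate 3. Without LPS replicate 2, 8 members rose and 3 fell, and Usp19 and Usp35 no longer passed. The count was 4 without LPS+MP replicate 2 and 5 without LPS+MP replicate 3. In these fits, in this order, the share of all genes was 40.5%, 26.0% and 28.7%, against 35.2% with all 12 libraries. The members' median was 0.06, against -0.05 over all genes.

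In LPS+MP against MP the fold call held 0 members higher (5.71% of all genes) and 2 lower, Usp1 and Usp2 (7.88% of all genes). By the adjusted p alone 7 members rose and 12 fell, against 19.0% of all genes higher and 36.6% lower, with a median of -0.06 against -0.14 over all genes. This split depends on the scaling. Median-ratio scaling moved the median of all genes by 0.13 and gave 13 higher and 6 lower members. Quantile normalization moved it by 0.12 and gave 11 and 10. The share of all genes passing in either direction was 51.9% and 53.4%, in this order, against 55.6% in the values as deposited. Its split into higher and lower is not given under these scalings. Under both, Usp35 gained the fold call (1.05 and 1.06) and Usp2 lost it (-0.97 and -0.80). Usp15, Usp21, Usp39, Usp46, Usp7 and Usp8, lower in the values as deposited, no longer passed under median-ratio scaling. When single libraries were left out, the adjusted p reached 0.103 for Usp15, 0.134 for Usp21 and 0.242 for Usp46, and was 0.0509 for Usp7 without MP replicate 1. Usp1, Usp2, Usp10, Usp31 and Usp45 passed the adjusted p as lower, and Usp12, Usp25, Usp33, Usp35 and Usp53 as higher, in all 15 alternative fits.

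The interaction, the MP change with LPS minus the MP change without it, asks whether the particle response differed between cells with and without LPS. No member passed its fold call (0 of 43, against 4.70% of all genes), 15 had an unadjusted p under 0.05, and by the adjusted p alone 1 was higher and 6 were lower, against 6.45% and 15.5% of all genes. The count of members moved with the libraries, and so did the share of all genes, given in brackets. It was 12 without LPS replicate 1 (26.1%) or LPS replicate 2 (31.0%). Without control replicate 1 (16.8%), MP replicate 2 (17.0%), LPS+MP replicate 2 (16.8%) or LPS+MP replicate 3 (17.9%) it was 3. Without MP replicate 1 (17.2%) or LPS+MP replicate 1 (17.0%) it was 4. Usp15 differed by -0.55 ± 0.13 (adjusted p = 0.00585), with an MP change of 0.44 without LPS and -0.11 ± 0.09 with it. Usp40 differed by -0.48 ± 0.10 (adjusted p = 0.00314), with MP changes of 0.55 and 0.07, and Usp8 by -0.37 ± 0.09 (adjusted p = 0.00655), with MP changes of 0.31 and -0.06. Without LPS replicate 2 these differences were -0.46, -0.48 and -0.34, and all 3 passed in all 19 alternative fits. The MP changes without and with LPS share no library. Over the 43 members they had a Pearson correlation of 0.59 and a Spearman correlation of 0.58 across genes, given as a description. Of the members, 28 had the same sign, and in 33 the change without LPS was the more positive. These 2 counts were not made over all genes. The median interaction was -0.17 over the members and also below 0 over all genes, at -0.08.

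**Figure D4:**
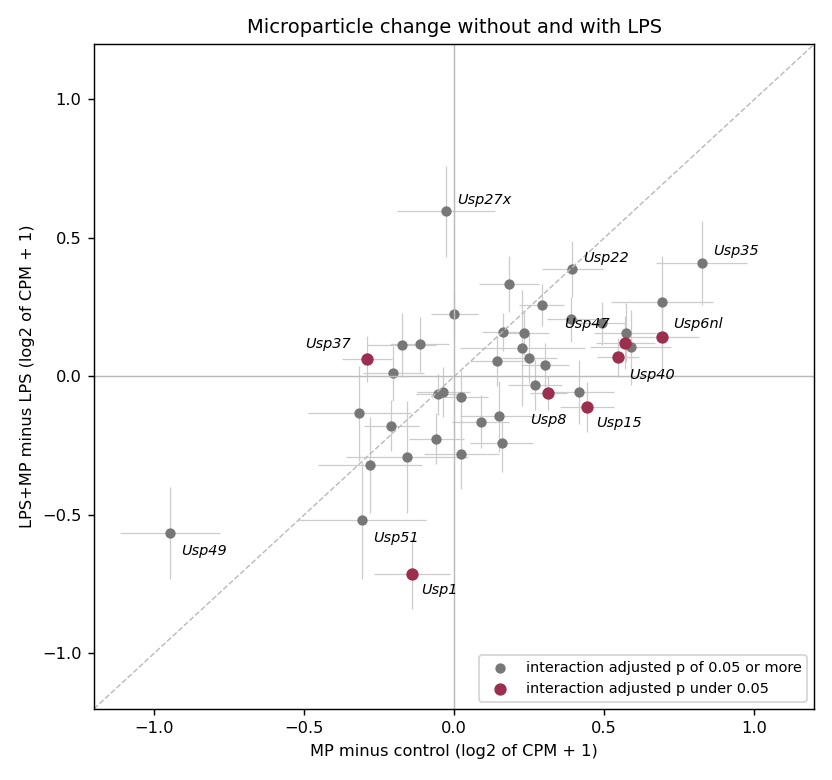
Log2 change with MP in cells without LPS (horizontal axis) and with LPS (vertical axis) for the 43 members, with standard errors; the dashed line marks equal changes. Members with an interaction at an adjusted p under 0.05 are in dark red, and 33 of the 43 points lie below the line. The median interaction was -0.17 over the members and -0.08 over all genes, which are not shown.

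Of the 43 members, 9 passed in none of the 4 pairwise comparisons, 8 in 1, 19 in 2, 6 in 3 and 1 in all 4. Over all 11745 genes the shares were 17.4% in none, 16.9% in 1, 34% in 2, 19.6% in 3 and 12% in all 4, against 20.9%, 18.6%, 44.2%, 14.0% and 2.33% of the members. The 9 were Usp4, Usp11, Usp20, Usp30, Usp34, Usp36, Usp38, Usp48 and Usp54. Their changes lay between -0.29 and 0.34, with 95% intervals of up to 0.45 to either side, so a missed threshold does not show equal levels. Usp48 lay within 104 to 125 CPM and Usp20 within 21.7 to 28.4 CPM over the 12 libraries. Usp34, a large protease of Wnt and NF-kappaB signalling, spanned 88.5 to 147 CPM, the highest value in LPS replicate 2.

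A further set of 34 tested genes held deubiquitinases of other families and 3 USP-fold proteins without a Usp number, Cyld among them. It gave fold calls for 2 genes higher with LPS, Tnfaip3 and Zufsp, and 0 lower (8.30% and 8.05% of all genes), and for 0 in either direction with MP (3.67% of all genes). Tnfaip3, an OTU-family enzyme and feedback inhibitor of NF-kappaB, was at 13.6, 12.4 and 13.9 CPM in control, 8.05, 10.5 and 8.98 in MP, 110, 114 and 106 in LPS, and 131, 134 and 138 in LPS+MP. Its LPS rise of 2.95 ± 0.09 (adjusted p = 4.45e-13) was larger than that of any of the 43 members, and it fell with MP by 0.50 ± 0.09 (adjusted p = 0.00055). Cyld, which has the same protease fold as the members but no Usp number and removes signalling chains in the NF-kappaB pathway, was lower in all 4 pairwise comparisons, by -0.27 ± 0.08 with LPS (adjusted p = 0.00627) and -0.35 ± 0.08 with MP (adjusted p = 0.00215). Zufsp, a protease of long ubiquitin chains, rose with LPS by 1.13 ± 0.12 (adjusted p = 1.15e-06), from 11.6 ± 1.27 CPM (SD, n = 3) in control to 26.9 ± 4.92 CPM (SD, n = 3). Its LPS libraries were at 23.8, 32.5 and 24.3 CPM, with LPS replicate 2 the highest. The change without that library is not given, so this fold call, close to the size threshold, may rest on it. By the adjusted p alone, 6 of these 34 genes rose and 5 fell with MP, against 20.6% and 18.3% of all genes, and 7 rose and 11 fell with LPS, against 26.6% and 35.6%. Of 7 partner proteins of the members, 1 rose and 2 fell with MP, and 0 rose and 2 fell with LPS. Of 8 ubiquitin and E1 enzyme genes, 3 rose and 0 fell with MP, and 5 rose and 2 fell with LPS. Fold calls with LPS were those of Isg15, a ubiquitin-like modifier, by 5.80 ± 0.20 (adjusted p = 1.24e-12), and of Uba7, its activating enzyme, by 1.65 ± 0.13 (adjusted p = 2.76e-08).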

How the data were processed

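RNA sequencing values of 12 libraries of J774A.1 cells were used, 3 in each of 4 groups, grouped and numbered by their labels. Libraries of polyadenylated RNA were made with a directional kit and 16 PCR cycles, per the labels' protocols. The authors' tools were TopHat2 2.1.1, Trimmomatic 0.36, FastQC 11.5, edgeR, DESeq2 and HTSeq, per the submitters' processing notes, which give no roles. Build and strand setting are not given in the sources used. The deposited columns are headed RPKM but were read as CPM, from the values alone: each column sums to between 998867 and 999273, and the deposited logCPM column, read as log2 CPM averaged over libraries, differed from the log2 mean with an SD of 0.20, against 0.99 with a length term. Whole reads were not recovered from the values, so the depth is unknown and no counting intervals are given.

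Genes had to reach 1 CPM in at least 3 libraries, which removed 17, and log2(CPM + 1) was analysed. limma 3.58.1 (R 4.3.3) was fitted to all 12 libraries with 1 mean per group and a variance trend, and tested on simulated data. Benjamini-Hochberg adjustment of the two-sided p-values covered all 11745 genes in each of 5 comparisons. Summaries used Python 3.11.15 with pandas 2.3.3 and scipy 1.17.1. Alternatives changed the pseudocount, filter, scaling, variance trend, replicate block, groups fitted and libraries. The members and gene lists were chosen with earlier results of these data known. Members described with every library's value are those with a fold call, the 3 largest changes each way at an adjusted p under 0.05 in each comparison and the 5 highest means; others are examples, and genes of the deubiquitinase and ubiquitin lists are named for a fold call, plus Cyld and Tnfaip3, and 1 such gene is not reported here. An interaction was listed for a closer look at an adjusted p under 0.05, a wider rule than the fold call planned, which gave 0 members.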

Additional observations from a re-analysis of the deposited data

Results flagged for a closer look

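For 7 members the microparticle change differed between cells with and without LPS by the test of that difference itself (limma interaction, adjusted p under 0.05 over all genes). Of the 43 members, 1 was higher and 6 were lower, against 6.45% and 15.5% of all genes. Neither share of the members was above that of all genes. Without Usp6nl the counts were 1 of 42 and 5 of 42. The difference, with LPS minus without, was -0.57 for Usp1 (adjusted p = 0.0313), -0.55 for Usp15 (adjusted p = 0.00585), -0.48 for Usp40 (adjusted p = 0.00314), -0.45 for Usp47 (adjusted p = 0.0294), -0.55 for Usp6nl (adjusted p = 0.0319), -0.37 for Usp8 (adjusted p = 0.00655) and 0.35 for Usp37 (adjusted p = 0.0435). Usp1 changed by -0.14 without LPS and -0.71 with it, so its difference is a larger fall, whereas Usp47 changed by 0.57 and 0.12 and Usp6nl by 0.69 and 0.14. Usp37 changed by -0.29 without LPS and 0.06 with it. Of 19 alternative fits, the difference passed in 7 for Usp1 and Usp37, in 10 for Usp47 and Usp6nl and in 19 for Usp15, Usp40 and Usp8. Without LPS replicate 2 it was -0.37 for Usp1, -0.46 for Usp15, -0.48 for Usp40, -0.33 for Usp47, -0.53 for Usp6nl, -0.34 for Usp8 and 0.42 for Usp37.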

How the results depend on the processing

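The members gave 75 results at an adjusted p under 0.05, and over 1119 alternative fits of them 996 kept direction and threshold, 123 kept the direction only and 0 reversed. Of the 75, 50 held in every alternative run in which the gene was tested. Usp51 in LPS+MP against MP is among the 50 with 13 runs, where the other members had 15. The filter removed it when 5 CPM was required and when only the compared groups were fitted. With a pseudocount of 0.1, 1 member each passed the fold call in MP against control (Usp49) and in LPS+MP against LPS (Usp51), in place of 0. With only the compared groups in the fit, 4 members passed the adjusted p in LPS+MP against LPS, in place of 8. The share of all genes there was 22.8%, in place of 35.2%. When 1 library was left out, fold calls ranged from 0 to 1 in MP against control, 3 to 4 in LPS against control, 0 to 0 in LPS+MP against LPS, 1 to 2 in LPS+MP against MP and 0 to 0 in the interaction, and members at an adjusted p under 0.05 from 16 to 24, 20 to 26, 4 to 11, 14 to 26 and 3 to 12 in the same order. Fewer samples enter those fits, and the cause of each lost call was not tested.

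Whether the replicate numbers pair the libraries was not settled. Over 18 same-numbered pairs the correlation of deviations ran from -0.25 to 0.16, with 4 over 0.1. The best mean correlation was with the own number in 7 of 12 libraries. With a replicate block the members at an adjusted p under 0.05 numbered 19, 22, 8, 18 and 7, and the numbers of fold calls did not change. The shares of all genes were 38.2%, 61.6%, 34.3%, 55.0% and 21.1%. Leaving LPS replicate 2 out of the fit for MP against control and LPS+MP against MP, an alternative chosen after seeing the data, gave 24 and 26 members at an adjusted p under 0.05, in place of 20 and 19, while the share of all genes went from 38.9% to 53.1% and from 55.6% to 65.7%. The unknown depth limits Usp51, Usp27x and Usp11 most, whose levels lie near 1 CPM.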
